A study of Mus musculus with 18 samples.

Results

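Lysosomal hydrolases and the proton pump that acidifies the lysosome were followed in sorted myeloid cells of the mouse peritoneal foreign body response. The set holds 47 genes named as lysosomal: 10 cathepsins and legumain, 14 other hydrolases and their cofactors, 6 membrane and lipid transfer proteins, 15 subunits of the vacuolar proton pump and 2 transcription factors of lysosomal genes. Of these, 44 had a probe with that gene symbol and 43 were measured, among 10806 genes tested. Each gene was read from its probe with the highest mean signal. Sterile objects were placed in the peritoneal cavity of C57Bl/6J MacGreen mice aged 10-16 weeks, whose myeloid cells carry EGFP under the Csf1r promoter. Capsule groups were cells of the tissue that had formed around the free-floating objects at days 7, 14, 21 and 28, freed by collagenase and taken from other mice than the lavage cells. Lavage groups were cells washed from the cavity at days 2, 4, 7 and 14 after surgery, and the day 0 lavage came from MacGreen mice without an implant. All groups carried the same transgene, were sorted for bright EGFP and were pooled before RNA extraction, and each had 2 arrays. The labels do not tell whether both arrays of a group represent separate animals, so p-values measure only the spread between these arrays, and their number limits the precision. Only the capsule cells were digested, so digestion and place in the body cannot be told apart. In such bulk samples, fewer cells of a type and less RNA per cell cannot be told apart.

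The lysosome is the degradative compartment of the cell, and macrophages use it to break down what they engulf. Cathepsins and legumain are proteases of the lysosome. Most other hydrolases cut sugars, sulphates and lipids from glycoproteins, glycosaminoglycans and sphingolipids, and several need a cofactor protein that presents the lipid. Tpp1, a peptidase, was also placed in that class. The vacuolar ATPase pumps protons into the lumen, its V1 part hydrolysing ATP in the cytosol and its V0 part passing protons through the membrane. The factors Tfeb and Mitf belong to the MiT/TFE family, whose members bind an E-box type motif, CACGTG and its extension TCACGTGA, in promoters of many lysosomal genes.

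The promoter windows of the members were read first for that motif. RefSeq windows (build GRCm38.p6, 250 bases before to 50 after the annotated start) were at hand for 39 of the 47 genes. Those without an entry were Ctsb, Ctsh, Asah1, Npc1, Atp6v1b2, Atp6v1c1, Atp6v1g1 and Atp6v1h. Both motifs read the same on either strand, and the longer one contains the shorter. CACGTG lay in the window of 14 of 39 members (35.9%), against 2187 of 27025 genes with a window (8.09%). TCACGTGA lay in 6 of 39 members (15.4%), against 304 of all genes (1.12%). By class, CACGTG was found in 5 of 8 cathepsins and legumain, 4 of 13 other hydrolases, 1 of 5 membrane proteins, 4 of 11 pump subunits and 0 of 2 factors. The 1 membrane protein was Lamp1, whose window held 4 sites. A match describes these letters only and is not a bound site. The 6 genes with the longer motif span cathepsins, pump and hydrolases, so they are shown to compare its place and its surroundings. Capitals mark TCACGTGA, or CACGTG in Ctsf, and each sequence runs 5′ to 3′ on the strand of its gene. Ctsf and Gla are given as whole windows because they had the largest fall of the set and a rise at every lavage day.

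Places are those of the first base of CACGTG, also where it lies within TCACGTGA, with the start-site base as 0. In Ctsa (chr2:164833734-164833793, plus strand) the 2 copies were at -12 and 5. In Ctsd (chr7:142387893-142387952, minus strand) the copy was at -98. In Atp6v0d1 (chr8:105566035-105566094, minus strand) it was at -3 and in Atp6v0e (chr17:26676372-26676431, plus strand) at 3. In Atp6v1a (chr16:44139358-44139417, minus strand) it was at -131. The Ctsf window (chr19:4854915-4855214, plus strand) held 1 shorter motif at -79, and the Gla window (chrX:134600956-134601255, minus strand) 2 longer ones at -227 and -194.
Ctsa: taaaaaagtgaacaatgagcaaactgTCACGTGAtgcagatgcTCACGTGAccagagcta
Ctsd: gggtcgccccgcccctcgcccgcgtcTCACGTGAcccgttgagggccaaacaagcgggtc
Atp6v0d1: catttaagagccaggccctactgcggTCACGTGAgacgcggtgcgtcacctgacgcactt
Atp6v0e: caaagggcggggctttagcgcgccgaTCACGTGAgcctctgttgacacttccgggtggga
Atp6v1a: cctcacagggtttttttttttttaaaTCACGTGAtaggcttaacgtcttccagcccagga
Ctsf: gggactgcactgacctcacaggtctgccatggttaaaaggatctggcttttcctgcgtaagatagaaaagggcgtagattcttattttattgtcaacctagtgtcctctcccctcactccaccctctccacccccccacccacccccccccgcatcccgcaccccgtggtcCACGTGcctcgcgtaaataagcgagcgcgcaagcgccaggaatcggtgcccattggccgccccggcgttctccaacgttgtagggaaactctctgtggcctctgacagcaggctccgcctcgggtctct
Gla: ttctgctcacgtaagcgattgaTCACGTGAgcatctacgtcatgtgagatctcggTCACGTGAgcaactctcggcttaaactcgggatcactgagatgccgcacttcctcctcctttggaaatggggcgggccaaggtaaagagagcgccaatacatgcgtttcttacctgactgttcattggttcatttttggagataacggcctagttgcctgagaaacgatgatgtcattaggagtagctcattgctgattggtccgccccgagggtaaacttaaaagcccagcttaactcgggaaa

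**Figure D1:**
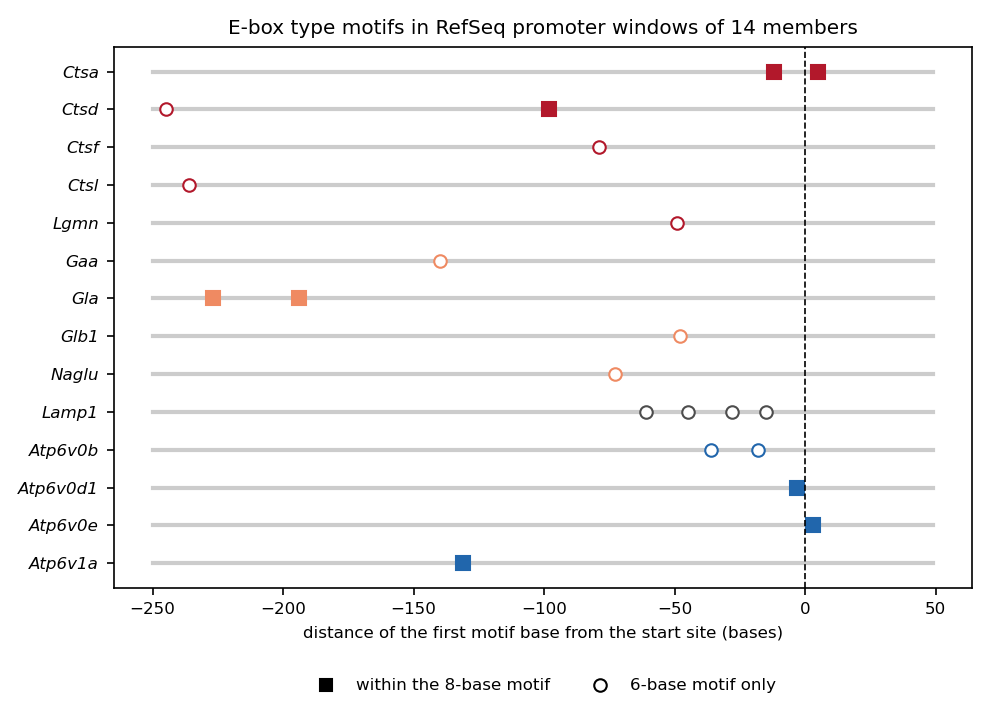
Places of CACGTG in the promoter windows of the 14 members that held it; the horizontal axis gives the distance from the annotated start site in bases, each row is a gene, and the marks tell sites within TCACGTGA from the rest. In the 6 genes with the longer motif, the CACGTG within it starts between -227 and 5.

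Arrays of 1 group correlated at 0.989 to 0.993 over genes, and 16442 to 19345 probes were detected per array. In the lavage groups and capsule day 7, replicate 1 lay on slide 1 and replicate 2 on slide 2, so the first and the second value of each pair printed below give within-slide comparisons, while capsule day 14 lay on slide 3 and capsule days 21 and 28 on slide 4. Mean intensity was 455 to 528 on slides 3 and 4, against 585 to 1053 on slides 1 and 2, so in comparisons of those capsule groups with others slide and group cannot be told apart. Of 10 macrophage and monocyte markers, 9 were measured, and all 9 were detected in every group except Fcgr1 in lavage day 14. Their summed intensity was 152944 to 156645 at lavage day 0, 106124 to 145267 at later lavage days and 96905 to 116929 in capsules. Against day 0, 3, 1, 0 and 0 were higher and 2, 1, 2 and 4 lower at lavage days 2, 4, 7 and 14. In capsule against lavage, 3 were higher and 1 lower at day 7, and 2 and 5 at day 14. Csf1r, whose promoter drove the EGFP, was on that list of 10, and its own values are not reported here. The summed intensity of resident peritoneal macrophage markers (6 of 7 measured) was 6986 to 17181 on the capsule arrays, and in the lavage 97388 to 111057 at day 0, 5275 to 12333 at day 2, 25542 to 38696 at day 4, 18774 to 20115 at day 7 and 40938 to 51296 at day 14. That of neutrophil markers (9 of 10 measured) was 2144 to 10683 in capsules. In the lavage this sum was 9998 to 10121 at day 0, 57531 to 82719 at day 2 and 55773 to 70443 at day 4. It was 6018 to 6521 at day 7 and 3321 to 4086 at day 14, with Mmp8 undetected at every lavage time. Single neutrophil markers did not all follow these sums. Against day 0, 6, 6, 5 and 3 were higher and 0, 0, 2 and 2 lower at lavage days 2, 4, 7 and 14. In capsule against lavage, 2 were higher and 0 lower at day 7, and 1 and 0 at day 14. Their median log2 intensity was 5.68 at lavage day 0, 8.74 at lavage day 7, 7.996 at lavage day 14 and 9.67 at capsule day 7. Fibroblast markers (4 of 7 measured) summed to 470 to 760 in capsule day 7 and 1427 to 1964 in later capsules, against 188 to 942 in lavage, where Pdgfra was undetected. B cell markers (6 of 8 measured) summed to 9888 to 9898 at lavage day 0. They had 3738 to 5944 at later lavage days and 4234 to 7775 in capsules. Of these 6, 1 was higher and 4 lower in capsule than in lavage at days 7 and 14. Mast cell markers (all 6 measured) summed to 1786 to 1942, 239 to 1393 and 232 to 316 in those groups. Mesothelial markers (2 of 4 measured) summed to 143 to 224 in lavage and 189 to 367 in capsules. All these markers moved with day and place, and their part in the differences below was not tested.

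Of the 47 members, 4 could not be measured. Ctsl, a protease prominent in macrophages, had 1 named probe that was not well above background on any array (intensity 68.4 to 139.6). Cd68, a macrophage lysosomal glycoprotein, and the pump subunits Atp6v0c and Atp6v1g1 had no probe with their symbol here. Of the 43 measured, Atp6v1h (79.6 to 177) and Tfeb (60.9 to 232) were dim and detected on 9 of 18 arrays, and the other 41 were detected on all 18. At the bright end, Psap reached 59999, Ctsb 45483, Man2b1 40985 and Lgmn 40603, against 71532 for the brightest probe of any gene, and differences near the top of the scale may be compressed.

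Lysosomal genes moved in both directions in the lavage. Values after ± are standard errors of log2 differences, tested in limma over all genes, and a gene is said to have risen or fallen where the adjusted p was below 0.05. Against day 0, 7 members rose and 10 fell at day 2, where 13.3% of all genes rose and 11.7% fell. At day 4, 8 rose and 6 fell (all genes 15.4% and 12.6%). At day 7, 12 rose and 6 fell (15.1% and 13.5%), and at day 14, 8 rose and 3 fell (10.3% and 9.50%). These 4 comparisons share the day 0 arrays. Lavage day 4 against day 2 had 2 rises and 0 falls, in Ctsf and Arsb (all genes 6.75% and 4.60%), and day 14 against day 7 had 4 rises and 4 falls (6.28% and 6.82%). Over all 43 members the median difference was -0.03, 0.07, 0.18 and 0.08 at days 2, 4, 7 and 14, against medians over all genes between 0.01 and 0.04.

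Capsule cells had more members higher than lower. Against lavage of the same day, 10 rose and 3 fell at day 7 (all genes 11.6% and 12.5%), and 12 rose and 4 fell at day 14 (16.8% and 18.4%), with a member median of 0.21 at both days and an all-gene median of -0.02. Capsule day 28 had 3 rises and 6 falls against capsule day 7 (16.2% and 15%). Capsule day 28 against day 21 had 0 calls among members in limma, with 2 at an unadjusted p under 0.05 (all genes 0.250% and 0.685%). The change in the capsule-lavage difference between days 14 and 7 was called for 3 members, 1 upward and 2 downward (4.66% and 6.81%). Altogether 35 members passed in at least 1 comparison of 2 groups and 8 in none, and none of the 108 calls had overlapping arrays. Neither count was made over all genes, so neither sets the members apart from other genes. The range of group means over the 9 groups had a median of 1.05 on the log2 scale for members and 1.05 for all genes. Leaving out 1 array moved some of these counts by over 1.5 times. The count of calls was 10 at lavage day 2 without lavage day 2 replicate 1 or lavage day 0 replicate 2. At lavage day 14 it was 7 without either day 0 array, and for lavage day 14 against day 7 it was 3 without lavage day 14 replicate 1 and 2 without lavage day 7 replicate 2. For lavage day 4 against day 2 it was 1 without replicate 1 of either day. In the day 7 capsule it was 8 without capsule replicate 1 and 7 without capsule replicate 2 or lavage replicate 2. It was 10 in the day 14 capsule without lavage day 14 replicate 1, and 4 for capsule day 28 without capsule day 28 replicate 2. The interaction had 5 calls without lavage day 14 replicate 2 or capsule day 14 replicate 1.

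The counts above use the brightest probe of each gene. Of the 43 members, 20 had other probes, and these passed in 33 instances, over 15 members, where the brightest probe was not called, 8 of them with the opposite sign. In 4 further instances they passed opposite to a called brightest probe.

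How arrays were put on 1 scale mattered where slides differed. With each array shifted to 1 median in place of quantile normalisation, the median of all genes was 0.39 in capsule against lavage at day 14, where 33 members rose and 0 fell. It was 0.29 in capsule day 28 against day 7, with 26 rises and 0 falls, and 0.53 in the interaction, with 21 and 1. Relative to those shifts, the member median stood 0.66, 0.37 and 0.18 higher. The share of calls over all genes that were rises was then 82.7% against 47.7% in the main fit at day 14, 78.8% against 52% in capsule day 28 and 90% against 40.6% in the interaction. In the lavage it was 65.6% against 54.9% at day 4, with 8 member rises and 4 falls, 36.1% against 52.1% at day 14, with 15 and 1, and 18.4% against 48% for day 14 against day 7, with 3 and 3. At those 3 the median of all genes was 0.10, -0.07 and -0.15, and at day 2 it was 0.12.

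**Figure D2:**
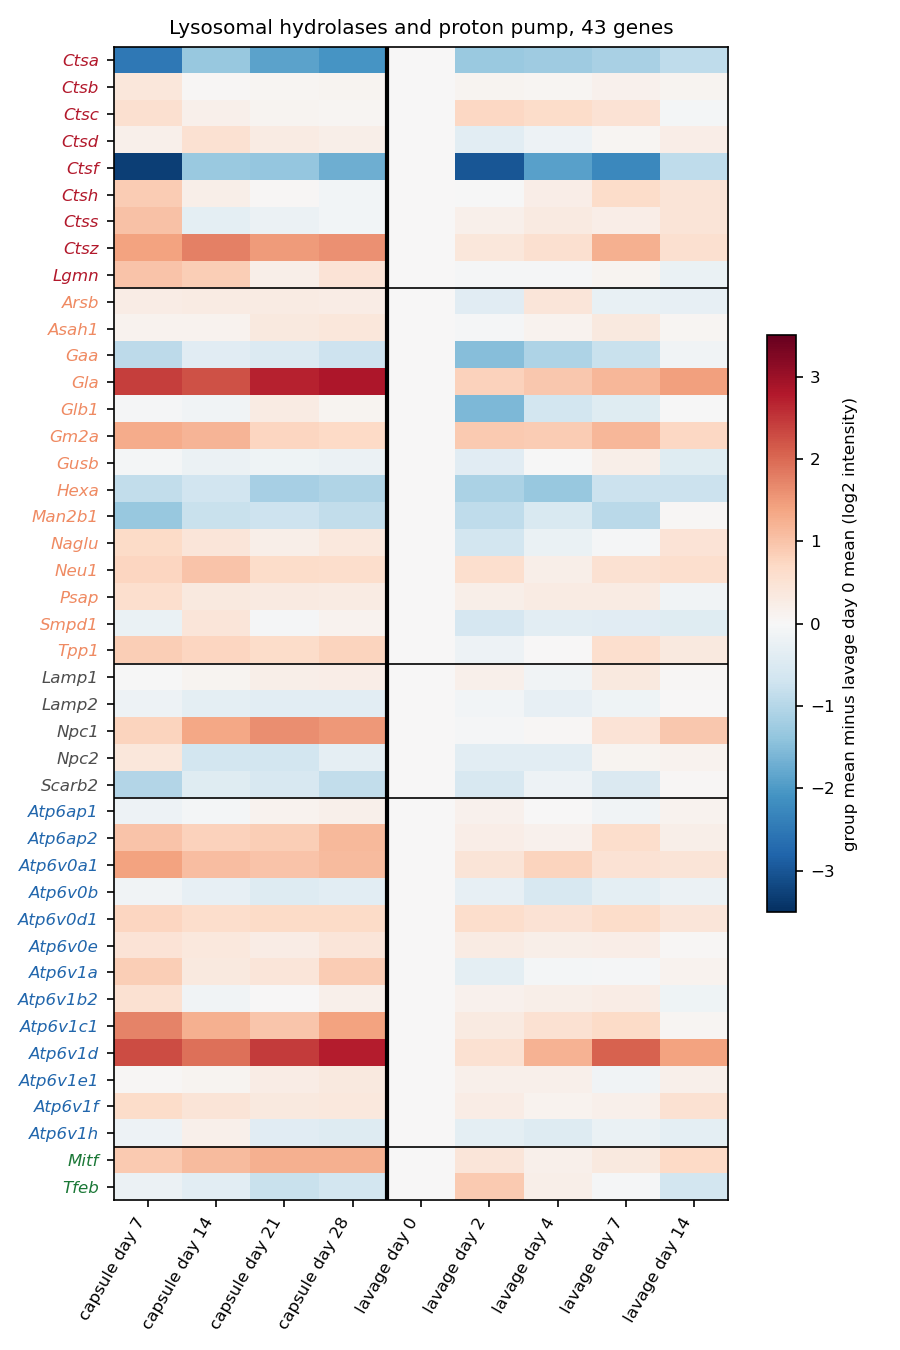
Heatmap of the 43 measured members (rows, by class) in the 9 groups (columns, capsule groups left of lavage groups); colour is the group mean minus the lavage day 0 mean in log2 intensity, red above and blue below. Gla and Atp6v1d are deepest red in the capsule columns, and Ctsf is deepest blue in capsule day 7 and lavage day 2.

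Among the proteases, Ctsf moved farthest. This cysteine cathepsin had normalised log2 intensities in capsules of 6.81 and 6.61 at day 7, 8.46 and 9.001 at day 14, 8.72 and 8.59 at day 21 and 8.44 and 8.16 at day 28. In the lavage it had 9.95 and 10.08 at day 0, 6.82 and 7.22 at day 2, 8.65 and 7.56 at day 4, 7.75 and 7.77 at day 7 and 9.35 and 8.92 at day 14. Both day 0 arrays stood above the other 16, and capsule day 7 and lavage day 2 held the lowest 4. Against day 0 it was 7.99-fold lower at day 2 (log2 difference -2.999 ± 0.29, adjusted p = 4.54e-06), and also fell at day 4 (log2 difference -1.91 ± 0.29, adjusted p = 0.00029) and day 7 (log2 difference -2.26 ± 0.29, adjusted p = 5.29e-05). At day 14 the fall was smaller (log2 difference -0.89 ± 0.29, adjusted p = 0.0465). It then stood higher at day 14 than at day 7 (log2 difference 1.37 ± 0.29, adjusted p = 0.00699) and at day 4 than at day 2 (log2 difference 1.09 ± 0.29, adjusted p = 0.0267). It was lower in capsule than in lavage cells at day 7 (log2 difference -1.05 ± 0.29, adjusted p = 0.0177) and higher at capsule day 28 than at capsule day 7 (log2 difference 1.59 ± 0.29, adjusted p = 0.00125). The Ctsf call at lavage day 14 ended without lavage day 0 replicate 1 (-0.95), lavage day 14 replicate 1 (-1.10), lavage day 0 replicate 2 (-0.82) or lavage day 14 replicate 2 (-0.67), or with the authors' log2 values (-0.91), with no detection filter, with slide as a random block or with slide as a block over slides 1 and 2. The Ctsf call of lavage day 4 against day 2 ended without lavage day 2 replicate 1 (0.89) or lavage day 4 replicate 1 (0.54), or with the compared arrays fitted alone. The value was 1.63 without lavage day 4 replicate 2. The Ctsf call of lavage day 14 against day 7 ended without lavage day 14 replicate 1 (1.16). The Ctsf call of the day 7 capsule ended without lavage day 7 replicate 1 (-1.06), capsule day 7 replicate 1 (-1.15), lavage day 7 replicate 2 (-1.03) or capsule day 7 replicate 2 (-0.95). The value was -0.66 with no background correction. Resident peritoneal macrophage markers were also highest at lavage day 0 and lowest at lavage day 2 and capsule day 7, and their part was not tested.

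Ctsa, a serine carboxypeptidase that also protects beta-galactosidase and neuraminidase, had 14.65 and 14.81 at day 0, 13.49 and 13.40 at day 2, 13.65 and 13.35 at day 4, 13.38 and 13.83 at day 7 and 13.90 and 13.78 at day 14 in the lavage. In capsules it had 12.45 and 11.999 at day 7, 13.36 and 13.44 at day 14, 13.12 and 12.59 at day 21 and 12.62 and 12.73 at day 28. It fell against day 0 at each lavage time, at -1.29 at day 2, -1.23 at day 4, -1.13 at day 7 and -0.89 at day 14 (log2 differences), the first with adjusted p = 0.00036. Capsule cells had less than lavage cells at day 7 (log2 difference -1.38 ± 0.21, adjusted p = 0.000238). Of the 2 other Ctsa probes, the first was detected on all 18 arrays and the second on only 7. These 2 probes did not share the falls: at day 7 they differed from day 0 by 0.36 and 0.51, and capsule day 7 from lavage day 7 by 0.48 and 0.24. For day 2 against day 0 they gave -0.38 and 0.61, for day 4 -0.04 and 0.60, and for day 14 0.44 and 0.39, so the direction of Ctsa rests on 1 probe. In the day 14 capsule both were higher than in lavage, at 0.83 (adjusted p = 0.00171) and 1.01 (adjusted p = 0.00424), where the brightest probe gave -0.44 (adjusted p = 0.113). The Ctsa call at lavage day 14 ended without lavage day 0 replicate 2 (-0.82), or under median scaling (-0.53).

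Ctsz, a carboxypeptidase cathepsin, rose in the lavage and in the day 14 capsule. It had 12.61 and 12.58 at day 0, 13.14 and 12.83 at day 2, 13.14 and 13.17 at day 4, 13.69 and 13.98 at day 7 and 13.11 and 13.17 at day 14 in the lavage and 13.97 and 14.05 at day 7, 14.34 and 14.37 at day 14, 14.13 and 14.07 at day 21 and 14.24 and 14.17 at day 28 in capsules (normalised log2 intensities). The rise over day 0 was largest at day 7 (log2 difference 1.24 ± 0.14, adjusted p = 1.41e-05), next to day 4 (log2 difference 0.56 ± 0.14, adjusted p = 0.00752) and day 14 (log2 difference 0.55 ± 0.14, adjusted p = 0.0118), and day 14 was lower than day 7 (log2 difference -0.69 ± 0.14, adjusted p = 0.0045). Capsule cells exceeded lavage cells at day 14 (log2 difference 1.21 ± 0.14, adjusted p = 1.36e-05) but not past the threshold at day 7 (log2 difference 0.17 ± 0.14, adjusted p = 0.406), and the difference between those 2 days was itself called (log2 difference 1.04 ± 0.19, adjusted p = 0.00399). A second Ctsz probe gave 0.53 for capsule against lavage at day 14 (adjusted p = 0.0588) and 0.11 for the interaction (adjusted p = 0.855), neither past the threshold. In the lavage it passed at day 7 (1.00, adjusted p = 0.00215). It gave 0.56 at day 4, 0.61 at day 14 and -0.39 for day 14 against day 7, none past the threshold. At capsule day 28 against day 7 it was lower (-0.59, adjusted p = 0.0423), where the brightest probe gave 0.20. The Ctsz call at lavage day 14 ended without lavage day 0 replicate 1 (0.56), lavage day 0 replicate 2 (0.53) or lavage day 14 replicate 2 (0.52), or with the compared arrays fitted alone. The Ctsz call of lavage day 14 against day 7 ended without lavage day 7 replicate 2 (-0.55), or under median scaling (-0.57) or with the compared arrays fitted alone. The Ctsz difference of the day 14 capsule was 2.34 under median scaling. The interaction was 1.95 under median scaling.

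Ctss, which trims the invariant chain in antigen presentation, turned between capsule days. At day 7 it had 14.39 and 14.53 on the capsule day 7 arrays, against 13.97 and 13.39 on the lavage day 7 arrays (log2 difference 0.78 ± 0.18, adjusted p = 0.00644). At day 14 it had 13.04 and 13.15 on the capsule day 14 arrays, against 14.03 and 13.73 on the lavage day 14 arrays (log2 difference -0.78 ± 0.18, adjusted p = 0.00418). Capsule cells were thus above lavage cells at day 7 and below them at day 14, and the interaction was called (log2 difference -1.56 ± 0.26, adjusted p = 0.002). Capsule day 28, at 13.23 and 13.44, also lay below capsule day 7 (log2 difference -1.12 ± 0.18, adjusted p = 0.000556). The Ctss call of the day 7 capsule ended without lavage day 7 replicate 2 (0.49) or capsule day 7 replicate 2 (0.71), or with the compared arrays fitted alone. The Ctss sign of the day 14 capsule turned under median scaling (0.03). The Ctss call of capsule day 28 ended under median scaling (-0.39). The interaction was -0.97 under median scaling, still past the threshold.

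Lgmn, an asparaginyl endopeptidase that processes cathepsins, was higher in capsule cells. At day 7 it had 15.16 and 15.04 on the capsule day 7 arrays, against 14.11 and 14.31 on the lavage day 7 arrays (log2 difference 0.89 ± 0.15, adjusted p = 0.000509). At day 14 it had 14.95 and 15.01 on the capsule day 14 arrays, against 13.76 and 13.98 on the lavage day 14 arrays (log2 difference 1.11 ± 0.15, adjusted p = 5.25e-05). The capsule arrays lay above the lavage arrays on both days. It fell in capsules between days 7 and 28 (log2 difference -0.52 ± 0.15, adjusted p = 0.0157). The Lgmn difference of the day 14 capsule was 2.35 under median scaling. The Lgmn call of capsule day 28 ended without capsule day 7 replicate 1 (-0.46), capsule day 28 replicate 1 (-0.50) or capsule day 28 replicate 2 (-0.54). The Lgmn sign of capsule day 28 turned under median scaling (0.43).

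Ctsc, which activates granule serine proteases, had 13.76 and 13.96 at day 0, 14.59 and 14.59 at day 2, 14.47 and 14.55 at day 4, 14.30 and 14.44 at day 7 and 13.67 and 13.90 at day 14 in the lavage and 14.50 and 14.33 at day 7, 14.12 and 13.97 at day 14, 13.88 and 14.02 at day 21 and 14.03 and 13.81 at day 28 in capsules. It rose over day 0 at day 2 (log2 difference 0.73 ± 0.14, adjusted p = 0.00162), day 4 (log2 difference 0.65 ± 0.14, adjusted p = 0.0035) and day 7 (log2 difference 0.51 ± 0.14, adjusted p = 0.0145), and was lower at day 14 than at day 7 (log2 difference -0.59 ± 0.14, adjusted p = 0.0147) and at capsule day 28 than at capsule day 7 (log2 difference -0.49 ± 0.14, adjusted p = 0.0174). Neutrophil markers were high at lavage days 2 and 4 as well, and their part was not tested. A second Ctsc probe gave 0.36, 0.38 and 0.17 at days 2, 4 and 7 and -0.53 at capsule day 28, none past the threshold. The Ctsc call at lavage day 7 ended without lavage day 0 replicate 1 (0.41) or lavage day 7 replicate 2 (0.44), or with the compared arrays fitted alone. The Ctsc call of lavage day 14 against day 7 ended without lavage day 14 replicate 1 (-0.47) or lavage day 7 replicate 2 (-0.51), or under median scaling (-0.46) or with the compared arrays fitted alone. The Ctsc call of capsule day 28 ended without capsule day 7 replicate 1 (-0.41) or capsule day 28 replicate 2 (-0.39), or with the compared arrays fitted alone. The Ctsc sign of capsule day 28 turned under median scaling (0.34).

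The aminopeptidase cathepsin Ctsh had 13.06 and 12.88 on the lavage day 7 arrays, against 12.28 and 12.37 on the lavage day 0 arrays (log2 difference 0.65 ± 0.19, adjusted p = 0.0183). In capsules Ctsh had 12.27 and 12.16 on the capsule day 28 arrays, against 13.22 and 13.22 on the capsule day 7 arrays (log2 difference -1.003 ± 0.19, adjusted p = 0.00141). It was thus higher at lavage day 7 than at day 0 and lower in the oldest capsules than in the youngest. The Ctsh call at lavage day 7 ended without lavage day 0 replicate 1 (0.60), lavage day 7 replicate 1 (0.56) or lavage day 0 replicate 2 (0.69). The Ctsh call of capsule day 28 ended under median scaling (-0.40). Ctsd, the main aspartic protease of lysosomes, had 13.69 and 13.59 on the lavage day 2 arrays, against 13.94 and 14.07 on the lavage day 0 arrays (log2 difference -0.37 ± 0.12, adjusted p = 0.0449). The Ctsd call at lavage day 2 ended without lavage day 0 replicate 1 (-0.44), lavage day 2 replicate 1 (-0.42), lavage day 0 replicate 2 (-0.30) or lavage day 2 replicate 2 (-0.32), or under median scaling (-0.08), with the compared arrays fitted alone, with slide as a random block or with slide as a block over slides 1 and 2. Ctsb, an abundant cysteine protease, was never called on its brightest probe, whose 18 arrays ran 14.83 to 15.34. A second Ctsb probe, detected on 18 arrays, fell at lavage day 7 (-0.60, adjusted p = 0.00543) and day 14 (-0.64, adjusted p = 0.00521). That probe was higher in capsule than in lavage at day 7 (0.60, adjusted p = 0.0072) and day 14 (0.72, adjusted p = 0.00117).

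Of the other hydrolases, Gla rose at every lavage day and was higher still in capsules. Gla is alpha-galactosidase, which cuts terminal galactose from globotriaosylceramide. It had 10.53 and 10.24 at day 7, 10.08 and 10.32 at day 14, 10.71 and 10.61 at day 21 and 10.78 and 10.83 at day 28 in capsules and 7.98 and 7.96 at day 0, 8.90 and 8.64 at day 2, 8.94 and 8.87 at day 4, 9.11 and 9.19 at day 7 and 9.43 and 9.38 at day 14 in the lavage. All 8 capsule arrays lay above all 10 lavage arrays, and both day 0 arrays were the lowest. Against day 0 the rise was 0.80 at day 2, 0.94 at day 4, 1.18 at day 7 and 1.43 at day 14 in log2 difference, the last with adjusted p = 6.78e-06. Capsule cells exceeded lavage cells at day 7 (log2 difference 1.24 ± 0.14, adjusted p = 2.64e-05) and day 14 (log2 difference 0.80 ± 0.14, adjusted p = 0.000643), and capsule day 28 exceeded day 7 (log2 difference 0.42 ± 0.14, adjusted p = 0.0389). A second Gla probe gave 1.08 and 1.87 for capsule against lavage at days 7 and 14 and 1.53 for lavage day 7, all past the threshold. It gave 0.53, 0.28 and 0.86 at lavage days 2, 4 and 14 and 0.27 for capsule day 28 against day 7, none past it. The Gla difference of the day 14 capsule was 1.30 under median scaling. The Gla call of capsule day 28 ended without capsule day 7 replicate 2 (0.27), capsule day 28 replicate 1 (0.44) or capsule day 28 replicate 2 (0.39), or with the compared arrays fitted alone. The value was 0.83 under median scaling.

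Gm2a, the activator protein that presents the GM2 ganglioside to hexosaminidase, had 13.60 and 13.55 at day 0, 14.63 and 14.32 at day 2, 14.49 and 14.44 at day 4, 14.78 and 14.70 at day 7 and 14.18 and 14.43 at day 14 in the lavage and 14.85 and 14.92 at day 7, 14.81 and 14.74 at day 14, 14.33 and 14.35 at day 21 and 14.34 and 14.22 at day 28 in capsules. It rose over day 0 at day 2 (log2 difference 0.90 ± 0.14, adjusted p = 0.000232), day 4 (log2 difference 0.89 ± 0.14, adjusted p = 0.000303), day 7 (log2 difference 1.16 ± 0.14, adjusted p = 2.36e-05) and day 14 (log2 difference 0.73 ± 0.14, adjusted p = 0.00166). Its partner Hexa, the alpha subunit of hexosaminidase, went the other way. Hexa had 14.33 and 14.35 at day 0, 13.05 and 13.39 at day 2, 13.10 and 12.93 at day 4, 13.39 and 13.78 at day 7 and 13.71 and 13.44 at day 14 in the lavage, with both day 0 arrays on top, and fell at day 2 (log2 difference -1.12 ± 0.17, adjusted p = 0.000252), day 4 (log2 difference -1.32 ± 0.17, adjusted p = 7.89e-05), day 7 (log2 difference -0.75 ± 0.17, adjusted p = 0.00462) and day 14 (log2 difference -0.76 ± 0.17, adjusted p = 0.00609). Gm2a was higher in capsules than in lavage at day 14 (log2 difference 0.47 ± 0.14, adjusted p = 0.0157) and was lower at capsule day 28 than at capsule day 7 (log2 difference -0.60 ± 0.14, adjusted p = 0.00468). The Gm2a call of the day 14 capsule ended without lavage day 14 replicate 1 (0.35) or capsule day 14 replicate 1 (0.44), or with the compared arrays fitted alone. The value was 1.58 under median scaling. The Gm2a sign of capsule day 28 turned under median scaling (0.31). The Hexa call at lavage day 7 ended without lavage day 7 replicate 1 (-0.55), or under median scaling (-0.51). The Hexa call at lavage day 14 ended without lavage day 14 replicate 2 (-0.62), or under median scaling (-0.42).

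Gaa, the acid alpha-glucosidase that degrades glycogen, also fell early. It had 12.59 and 12.61 at day 0, 10.99 and 11.25 at day 2, 11.63 and 11.39 at day 4, 11.89 and 11.73 at day 7 and 12.52 and 12.45 at day 14 in the lavage. The fall against day 0 was largest at day 2 (log2 difference -1.48 ± 0.14, adjusted p = 2.95e-06), next to day 4 (log2 difference -1.09 ± 0.14, adjusted p = 5.89e-05) and day 7 (log2 difference -0.79 ± 0.14, adjusted p = 0.000588). Day 14 lay above day 7 (log2 difference 0.67 ± 0.14, adjusted p = 0.00527) and did not differ from day 0 past the threshold (log2 difference -0.12 ± 0.14, adjusted p = 0.601). The Gaa call of lavage day 14 against day 7 ended without lavage day 7 replicate 2 (0.59), or with the compared arrays fitted alone.

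Man2b1, alpha-mannosidase, had 15.05 and 14.996 at day 0, 14.02 and 14.28 at day 2, 14.33 and 14.65 at day 4, 13.99 and 14.18 at day 7 and 15.21 and 14.92 at day 14 in the lavage. It fell at day 2 (log2 difference -0.88 ± 0.17, adjusted p = 0.00169), day 4 (log2 difference -0.53 ± 0.17, adjusted p = 0.0311) and day 7 (log2 difference -0.94 ± 0.17, adjusted p = 0.000858), and was higher at day 14 than at day 7 (log2 difference 0.98 ± 0.17, adjusted p = 0.00191). In the day 14 capsule it had 14.24 and 14.24 on the capsule day 14 arrays, against 15.21 and 14.92 on the lavage day 14 arrays (log2 difference -0.82 ± 0.17, adjusted p = 0.00191). A second Man2b1 probe gave -1.04 at day 2, 0.84 for day 14 against day 7 and -1.11 for the day 14 capsule. At days 4 and 7 against day 0 that probe rose, by 1.04 (adjusted p = 0.00719) and 1.48 (adjusted p = 0.000554), so the direction at those 2 days differs between probes. At day 14 it rose by 2.32 (adjusted p = 1.68e-05), where the brightest probe gave 0.04. The Man2b1 call at lavage day 4 ended without lavage day 0 replicate 1 (-0.50), lavage day 4 replicate 1 (-0.37) or lavage day 0 replicate 2 (-0.56), or under median scaling (-0.43). The Man2b1 sign of the day 14 capsule turned under median scaling (0.01).

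Glb1, beta-galactosidase, had 11.10 and 10.91 on the lavage day 2 arrays, against 13.21 and 11.97 on the lavage day 0 arrays (log2 difference -1.58 ± 0.32, adjusted p = 0.00208). The 2 day 0 arrays of Glb1 stood far apart. The Glb1 difference at lavage day 2 was -0.96 without lavage day 0 replicate 1. Of the 2 other Glb1 probes, 1 fell by 1.04 and the other gave 0.16. Neu1, neuraminidase, had 12.11 and 11.92 on the lavage day 2 arrays, against 11.56 and 11.29 on the lavage day 0 arrays (log2 difference 0.59 ± 0.14, adjusted p = 0.00609). It also rose at lavage day 7 (log2 difference 0.53 ± 0.14, adjusted p = 0.0107) and day 14 (log2 difference 0.59 ± 0.14, adjusted p = 0.00796), and capsule day 14 exceeded lavage day 14 (log2 difference 0.40 ± 0.14, adjusted p = 0.038). A second Neu1 probe gave 0.48 and 0.10 at days 2 and 14 and 0.33 in the day 14 capsule, none past the threshold. The Neu1 call at lavage day 2 ended without lavage day 2 replicate 1 (0.49) or lavage day 0 replicate 2 (0.46), or with the compared arrays fitted alone. The Neu1 call at lavage day 7 ended without lavage day 7 replicate 1 (0.49) or lavage day 0 replicate 2 (0.40), or with the compared arrays fitted alone. The Neu1 call at lavage day 14 ended without lavage day 0 replicate 2 (0.46), or with the compared arrays fitted alone. The Neu1 call of the day 14 capsule ended without lavage day 14 replicate 1 (0.38), lavage day 14 replicate 2 (0.42) or capsule day 14 replicate 1 (0.29), or with the compared arrays fitted alone. The value was 1.17 under median scaling.

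The remaining hydrolases passed in 1 to 3 comparisons each or in none. Naglu, which degrades heparan sulphate, fell at lavage day 2 (log2 difference -0.65 ± 0.20, adjusted p = 0.0294) and was higher in the day 7 capsule, with 12.20 and 12.26 on the capsule day 7 arrays, against 11.62 and 11.43 on the lavage day 7 arrays (log2 difference 0.71 ± 0.20, adjusted p = 0.0199). Smpd1, acid sphingomyelinase, fell at lavage day 2 (log2 difference -0.58 ± 0.19, adjusted p = 0.0426) and was higher in the day 14 capsule, with 9.75 and 10.29 on the capsule day 14 arrays, against 9.03 and 9.31 on the lavage day 14 arrays (log2 difference 0.85 ± 0.19, adjusted p = 0.00381). A second Smpd1 probe gave -0.79 at lavage day 2 and 0.03 in the capsule, neither past the threshold. Arsb, a sulphatase of dermatan and chondroitin sulphate, was higher at lavage day 4 than at day 2 (log2 difference 0.79 ± 0.15, adjusted p = 0.00324), and higher in capsule than in lavage at day 7 (log2 difference 0.51 ± 0.15, adjusted p = 0.0216) and day 14 (log2 difference 0.56 ± 0.15, adjusted p = 0.00973). The other Arsb probe gave 0.10, 0.12 and -0.03 in those 3 comparisons, none past the threshold. The Naglu call at lavage day 2 ended without lavage day 0 replicate 1 (-0.48), lavage day 2 replicate 1 (-0.59) or lavage day 2 replicate 2 (-0.70), or under median scaling (-0.41). The Naglu call of the day 7 capsule ended without capsule day 7 replicate 1 (0.74), lavage day 7 replicate 2 (0.62) or capsule day 7 replicate 2 (0.68), or under median scaling. The Smpd1 call at lavage day 2 ended without lavage day 0 replicate 1 (-0.51), lavage day 2 replicate 1 (-0.63), lavage day 0 replicate 2 (-0.64) or lavage day 2 replicate 2 (-0.52), or under median scaling (-0.41), with the authors' log2 values or with no detection filter. The Smpd1 call of the day 14 capsule ended without capsule day 14 replicate 2 (0.58). The value was 1.33 under median scaling. The Arsb call of the day 7 capsule ended without lavage day 7 replicate 2 (0.45) or capsule day 7 replicate 2 (0.43), or under median scaling (0.40) or with the compared arrays fitted alone. The Arsb call of the day 14 capsule ended without lavage day 14 replicate 2 (0.48) or capsule day 14 replicate 1 (0.50), or with the compared arrays fitted alone. The value was 1.06 under median scaling.

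Tpp1, a tripeptidyl peptidase, rose at lavage day 7, with 11.61 and 11.29 on the lavage day 7 arrays, against 10.75 and 10.94 on the lavage day 0 arrays (log2 difference 0.60 ± 0.16, adjusted p = 0.0108). Gusb, beta-glucuronidase, was lower at lavage day 14 than at day 7 (log2 difference -0.61 ± 0.14, adjusted p = 0.0128), and its 2 other probes gave -0.13 and -0.60, neither past the threshold. Psap, the precursor of the saposin cofactors, was higher in the day 14 capsule, with 15.40 and 15.57 on the capsule day 14 arrays, against 14.92 and 15.14 on the lavage day 14 arrays (log2 difference 0.46 ± 0.13, adjusted p = 0.0146). Asah1, acid ceramidase, was called in no comparison on its brightest probe, whose arrays ran 14.25 to 14.96, while a second probe fell at lavage day 2 (-0.71, adjusted p = 0.0227) and was higher at capsule day 28 than at day 7 (1.03, adjusted p = 0.00239). The Tpp1 call at lavage day 7 ended without lavage day 0 replicate 1 (0.50) or lavage day 7 replicate 1 (0.45). The Gusb call of lavage day 14 against day 7 ended without lavage day 14 replicate 1 (-0.61) or lavage day 7 replicate 2 (-0.42), or with the compared arrays fitted alone. The Psap call of the day 14 capsule ended without lavage day 14 replicate 1 (0.34) or capsule day 14 replicate 2 (0.37), or with the compared arrays fitted alone. The value was 1.498 under median scaling.

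Among the membrane and lipid transfer proteins, 5 of 6 were measured. Npc2, the soluble protein that hands cholesterol to the transporter Npc1, had 13.76 and 14.08 at day 7, 13.08 and 12.70 at day 14, 12.83 and 12.92 at day 21 and 13.29 and 13.15 at day 28 in capsules, against 13.58 and 13.67 at lavage day 7 and 13.51 and 13.77 at lavage day 14. It was lower in capsule than in lavage at day 14 (log2 difference -0.75 ± 0.17, adjusted p = 0.00305) and lower at capsule day 28 than at day 7 (log2 difference -0.70 ± 0.17, adjusted p = 0.00658). At day 7 capsule and lavage gave log2 difference 0.29 ± 0.17, adjusted p = 0.237, and the interaction was called (log2 difference -1.05 ± 0.24, adjusted p = 0.0115). Without capsule day 7 replicate 2 or capsule day 14 replicate 2 the interaction was -0.89 or -0.86 and not called, nor was it with the compared arrays alone or under median scaling (-0.43). The Npc2 sign of the day 14 capsule turned under median scaling (0.04). The Npc2 call of capsule day 28 ended without capsule day 7 replicate 2 (-0.54) or capsule day 28 replicate 2 (-0.63). The Npc2 sign of capsule day 28 turned under median scaling (0.06).

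Npc1 itself had 13.30 and 13.23 on the lavage day 14 arrays, against 12.06 and 12.59 on the lavage day 0 arrays (log2 difference 0.94 ± 0.19, adjusted p = 0.00245), and capsule day 28, at 13.76 and 13.91, lay above capsule day 7, at 12.96 and 13.26 (log2 difference 0.73 ± 0.19, adjusted p = 0.00978). Its 3 other probes gave 0.58, 0.03 and 0.03 for lavage day 14, the first past the threshold. For capsule day 28 they gave -0.03, -1.17 (adjusted p = 0.00141) and 0.35, so the direction there differs between probes. The Npc1 call of capsule day 28 ended without capsule day 7 replicate 1 (0.58) or capsule day 28 replicate 2 (0.65). The value was 1.61 under median scaling. Scarb2, which carries glucocerebrosidase to the lysosome, fell at lavage day 2 (log2 difference -0.55 ± 0.15, adjusted p = 0.0153) and day 7 (log2 difference -0.52 ± 0.15, adjusted p = 0.0201) and was higher at day 14 than at day 7 (log2 difference 0.55 ± 0.15, adjusted p = 0.0284). Capsule cells had less of it than lavage cells at day 7 (log2 difference -0.50 ± 0.15, adjusted p = 0.0281) and day 14 (log2 difference -0.46 ± 0.15, adjusted p = 0.0292). The Scarb2 call at lavage day 2 ended without lavage day 2 replicate 1 (-0.43) or lavage day 0 replicate 2 (-0.46), or under median scaling (-0.24) or with the compared arrays fitted alone. The Scarb2 call at lavage day 7 ended without lavage day 7 replicate 1 (-0.55), lavage day 0 replicate 2 (-0.42) or lavage day 7 replicate 2 (-0.48), or under median scaling (-0.33). The Scarb2 call of lavage day 14 against day 7 ended without lavage day 7 replicate 1 (0.59), lavage day 14 replicate 1 (0.42) or lavage day 7 replicate 2 (0.52), or under median scaling (0.52), with the compared arrays fitted alone or with slide as a block over slides 1 and 2. The Scarb2 call of the day 7 capsule ended without lavage day 7 replicate 1 (-0.47), capsule day 7 replicate 1 (-0.55), lavage day 7 replicate 2 (-0.54) or capsule day 7 replicate 2 (-0.45), or under median scaling (-0.47), with the compared arrays fitted alone or with slide as a block over slides 1 and 2. The Scarb2 call of the day 14 capsule ended without lavage day 14 replicate 1 (-0.33) or capsule day 14 replicate 2 (-0.38), or with the compared arrays fitted alone. The Scarb2 sign of the day 14 capsule turned under median scaling (0.24). The abundant membrane glycoproteins Lamp1 and Lamp2 were called in no comparison on their brightest probes, with arrays from 14.02 to 14.64 and 14.24 to 14.73. Of the other Lamp2 probes, 1 fell at lavage day 2 (-0.55, adjusted p = 0.00727). Another was lower in the day 14 capsule than in lavage (-0.75, adjusted p = 0.00348) and passed in the interaction (-1.04, adjusted p = 0.0135).

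**Figure D3:**
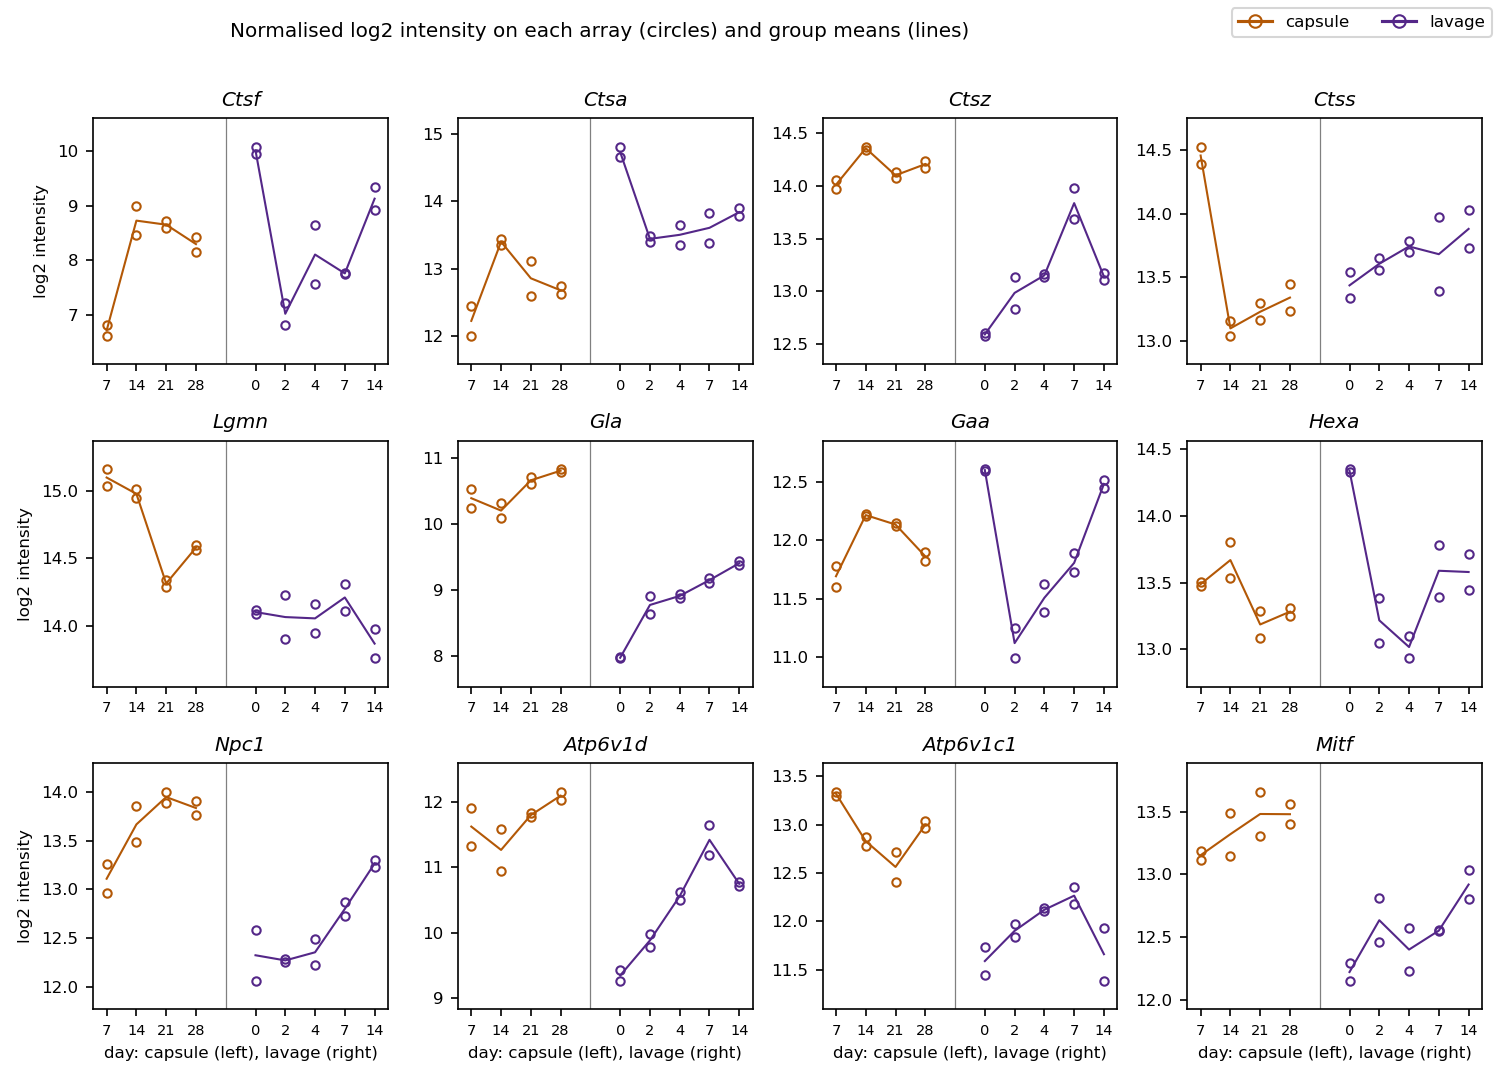
Normalised log2 intensity on each array for 12 members, by day, with capsule groups left of lavage groups; each circle is 1 array and lines join group means. Ctsf is highest at lavage day 0, Gla is higher on every capsule array than on any lavage array, and Atp6v1d is lowest at lavage day 0.

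Called pump subunits rose more often than they fell against lavage day 0 and in capsule against lavage. At lavage day 2 the share that rose, 15.4%, was near the 13.3% of all genes. Lavage day 14 against day 7 had 0 rises and 1 fall. Atp6v1d, a subunit of the central stalk of V1, had 11.33 and 11.91 at day 7, 11.59 and 10.94 at day 14, 11.77 and 11.82 at day 21 and 12.15 and 12.03 at day 28 in capsules and 9.43 and 9.27 at day 0, 9.98 and 9.79 at day 2, 10.62 and 10.50 at day 4, 11.65 and 11.19 at day 7 and 10.77 and 10.72 at day 14 in the lavage. Both day 0 arrays were the lowest of the 18. It rose over day 0, to a level 4.20-fold higher, at day 7 (log2 difference 2.07 ± 0.23, adjusted p = 1.26e-05), and also at day 4 (log2 difference 1.21 ± 0.23, adjusted p = 0.0012) and day 14 (log2 difference 1.40 ± 0.23, adjusted p = 0.000516). The day 2 difference missed the threshold (log2 difference 0.54 ± 0.23, adjusted p = 0.103).

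Atp6v1c1, the V1 subunit C that joins the peripheral stalk, was higher in capsules. At day 7 it had 13.30 and 13.34 on the capsule day 7 arrays, against 12.18 and 12.36 on the lavage day 7 arrays (log2 difference 1.05 ± 0.18, adjusted p = 0.000615). At day 14 it had 12.88 and 12.78 on the capsule day 14 arrays, against 11.39 and 11.94 on the lavage day 14 arrays (log2 difference 1.17 ± 0.18, adjusted p = 0.000174). Capsule arrays lay above lavage arrays on both days. In the lavage it rose at day 4 (log2 difference 0.53 ± 0.18, adjusted p = 0.0381) and day 7 (log2 difference 0.68 ± 0.18, adjusted p = 0.0106) and was lower at day 14 than at day 7 (log2 difference -0.60 ± 0.18, adjusted p = 0.0387). A second probe gave 0.92 and 1.07 for the capsules, 1.06 at lavage day 7 and -0.60 for day 14 against day 7, all past the threshold, and 0.48 at day 4, which was not. The Atp6v1c1 call at lavage day 4 ended without lavage day 4 replicate 1 (0.51), lavage day 0 replicate 2 (0.39) or lavage day 4 replicate 2 (0.55), or with the authors' log2 values or with slide as a block over slides 1 and 2. The Atp6v1c1 call at lavage day 7 ended without lavage day 0 replicate 2 (0.53) or lavage day 7 replicate 2 (0.58). The Atp6v1c1 call of lavage day 14 against day 7 ended without lavage day 7 replicate 1 (-0.70), lavage day 14 replicate 1 (-0.33) or lavage day 7 replicate 2 (-0.51), or with the authors' log2 values, with the compared arrays fitted alone or with slide as a block over slides 1 and 2. The Atp6v1c1 difference of the day 14 capsule was 2.01 under median scaling.

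Atp6v0a1, a V0 subunit a that forms the proton path, had 13.62 and 13.77 at capsule day 7 and 13.45 and 13.29 at capsule day 14, and 12.29 and 12.29 at day 0, 12.91 and 12.59 at day 2, 12.90 and 13.21 at day 4, 12.96 and 12.65 at day 7 and 12.81 and 12.68 at day 14 in the lavage. It rose over day 0 at day 2 (log2 difference 0.46 ± 0.16, adjusted p = 0.0491), day 4 (log2 difference 0.77 ± 0.16, adjusted p = 0.0026) and day 7 (log2 difference 0.51 ± 0.16, adjusted p = 0.0265). Capsule cells exceeded lavage cells at day 7 (log2 difference 0.89 ± 0.16, adjusted p = 0.000996) and day 14 (log2 difference 0.63 ± 0.16, adjusted p = 0.00766). Both other probes were called in the same direction at days 2, 4 and 7 (0.85 and 0.77, 1.05 and 1.30, 1.20 and 1.45) and for the day 14 capsule (1.64 and 1.47). For the day 7 capsule 1 of them gave 0.81 and missed the threshold. The Atp6v0a1 call at lavage day 2 ended without lavage day 0 replicate 1 (0.46), lavage day 2 replicate 1 (0.30) or lavage day 0 replicate 2 (0.46), or with the authors' log2 values, with no detection filter, with the compared arrays fitted alone, with slide as a random block or with slide as a block over slides 1 and 2. The Atp6v0a1 call at lavage day 7 ended without lavage day 0 replicate 1 (0.51), lavage day 7 replicate 1 (0.36) or lavage day 0 replicate 2 (0.52), or with the compared arrays fitted alone or with slide as a block over slides 1 and 2. The Atp6v0a1 call of the day 14 capsule ended without capsule day 14 replicate 1 (0.55). The value was 1.51 under median scaling.

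Atp6v1a, the catalytic V1 subunit A, was called once on its brightest probe, with 13.28 and 13.48 on the capsule day 7 arrays, against 12.48 and 12.47 on the lavage day 7 arrays (log2 difference 0.90 ± 0.16, adjusted p = 0.000896). A second Atp6v1a probe passed there too (0.88, adjusted p = 0.0185), and also in the day 14 capsule (1.16, adjusted p = 0.002) and at capsule day 28 against day 7 (0.89, adjusted p = 0.0141). Atp6v0d1, which joins V0 to the stalk, rose at lavage day 2 (log2 difference 0.63 ± 0.16, adjusted p = 0.0106), day 4 (log2 difference 0.51 ± 0.16, adjusted p = 0.0297) and day 7 (log2 difference 0.63 ± 0.16, adjusted p = 0.00953). Its other probes gave 0.31 and 0.27 at day 2 and 0.22 and 0.46 at day 4, none past the threshold. At day 7 they gave 0.25, which missed it, and 0.76 (adjusted p = 0.00925). In the day 14 capsule both passed, at 0.48 (adjusted p = 0.0297) and 0.78 (adjusted p = 0.00661), where the brightest probe gave 0.20 ± 0.16, adjusted p = 0.378. The Atp6v0d1 call at lavage day 2 ended without lavage day 0 replicate 1 (0.63), lavage day 2 replicate 1 (0.63) or lavage day 0 replicate 2 (0.63). The Atp6v0d1 call at lavage day 4 ended without lavage day 0 replicate 1 (0.51), lavage day 4 replicate 1 (0.56), lavage day 0 replicate 2 (0.51) or lavage day 4 replicate 2 (0.46), or under median scaling (0.62). The Atp6v0d1 call at lavage day 7 ended without lavage day 7 replicate 1 (0.59) or lavage day 0 replicate 2 (0.63). Atp6ap2, an accessory subunit and prorenin receptor, rose at lavage day 7 (log2 difference 0.62 ± 0.15, adjusted p = 0.00801) and was higher in the day 14 capsule (log2 difference 0.61 ± 0.15, adjusted p = 0.00767), where a dim second probe detected on 5 arrays gave -0.57 (adjusted p = 0.0379) and another, detected on all 18, gave 0.66 (adjusted p = 0.0183). At lavage day 7 the dim probe gave 0.19 and the other 0.94, which passed. The Atp6ap2 call at lavage day 7 ended without lavage day 7 replicate 2 (0.43). The Atp6ap2 call of the day 14 capsule ended without lavage day 14 replicate 1 (0.46), or with the compared arrays fitted alone. The value was 1.29 under median scaling.

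Atp6v1f, a V1 stalk subunit, rose at lavage day 14 (log2 difference 0.52 ± 0.14, adjusted p = 0.0174) and was higher in the day 7 capsule (log2 difference 0.46 ± 0.14, adjusted p = 0.0267). Atp6v0e was higher in the day 14 capsule (log2 difference 0.32 ± 0.12, adjusted p = 0.0429). The proteolipid Atp6v0b was the one pump subunit of the set that fell against day 0, with 12.34 and 12.50 on the lavage day 4 arrays, against 13.02 and 12.93 on the lavage day 0 arrays (log2 difference -0.55 ± 0.14, adjusted p = 0.01). The Atp6v1f call at lavage day 14 ended without lavage day 0 replicate 1 (0.46) or lavage day 14 replicate 1 (0.36), or with the compared arrays fitted alone. The Atp6v1f call of the day 7 capsule ended without lavage day 7 replicate 1 (0.43), capsule day 7 replicate 1 (0.37) or lavage day 7 replicate 2 (0.50), or under median scaling (0.54), with the compared arrays fitted alone or with slide as a block over slides 1 and 2. The Atp6v0e call of the day 14 capsule ended without lavage day 14 replicate 1 (0.32), lavage day 14 replicate 2 (0.32), capsule day 14 replicate 1 (0.29) or capsule day 14 replicate 2 (0.35), or with the compared arrays fitted alone. The value was 1.35 under median scaling. The Atp6v0b call at lavage day 4 ended without lavage day 0 replicate 1 (-0.51) or lavage day 4 replicate 1 (-0.47), or under median scaling (-0.33). Atp6ap1 (14.47 to 14.95), Atp6v1b2 (13.98 to 14.95), Atp6v1e1 (14.12 to 14.64) and the dim Atp6v1h (5.29 to 6.20) were called in no comparison, their ranges being normalised log2 intensities over 18 arrays.

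The transcription factors rose in 3 comparisons, Tfeb in 1 and Mitf in 2. Tfeb, known as a master regulator of lysosomal genes, was dim, with 6.63 and 6.77 on the lavage day 2 arrays, against 5.88 and 5.69 on the lavage day 0 arrays (log2 difference 0.92 ± 0.25, adjusted p = 0.0138). It was detected on both arrays of lavage days 0, 2 and 4, on 1 array of lavage day 7, capsule day 7 and capsule day 14, and on none of the other groups. Its other differences ran from -0.66 at lavage day 14 (log2 difference -0.66 ± 0.25, adjusted p = 0.0797) to 0.20 at lavage day 4 in the comparisons with day 0, and none was called. The Tfeb call at lavage day 2 ended without lavage day 0 replicate 2 (0.82) or lavage day 2 replicate 2 (0.85), or with no background correction (0.46) or with the authors' log2 values (1.38). Mitf had 12.81 and 13.03 on the lavage day 14 arrays, against 12.16 and 12.29 on the lavage day 0 arrays (log2 difference 0.69 ± 0.18, adjusted p = 0.0152) and 13.19 and 13.12 on the capsule day 7 arrays, against 12.56 and 12.55 on the lavage day 7 arrays (log2 difference 0.60 ± 0.18, adjusted p = 0.0279). Its capsule difference at day 14 was not called (log2 difference 0.40 ± 0.18, adjusted p = 0.104), nor were those of lavage days 2, 4 and 7 (log2 differences 0.41, 0.18 and 0.33). The 2 other Mitf probes gave 0.79 and -0.33 for lavage day 14 and 0.87 and -0.23 for the day 7 capsule, none past the threshold. The Mitf call at lavage day 14 ended without lavage day 0 replicate 1 (0.63) or lavage day 14 replicate 2 (0.58). The Mitf call of the day 7 capsule ended without lavage day 7 replicate 1 (0.60), capsule day 7 replicate 1 (0.56), lavage day 7 replicate 2 (0.59) or capsule day 7 replicate 2 (0.63).

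Set side by side at lavage day 2, 6 of 14 other hydrolases fell and 3 rose, 3 of 9 cathepsins and legumain fell and 1 rose, and 2 of 13 pump subunits rose with 0 falls (all genes 13.3% up and 11.7% down). The class medians were -0.40 for other hydrolases, -0.03 for cathepsins and legumain, -0.11 for membrane proteins and 0.23 for the pump, beside 0.04 for all genes. On slide 1 and slide 2 taken alone, other hydrolases had -0.46 and -0.35 and the pump 0.28 and 0.12. Other hydrolases minus pump was thus -0.63, and cathepsins minus pump -0.26. Members are not replicates, so no test was made of these medians. Median scaling left the order at day 2, with -0.21 for other hydrolases, 0.18 for cathepsins and 0.41 for the pump.

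At lavage day 4, 4 pump subunits rose and 1 fell, with a median of 0.18, against 2 rises and 3 falls of other hydrolases (0.00) and 2 and 2 of cathepsins (0.07), where 15.4% of all genes rose and 12.6% fell. By day 7, 5 pump subunits rose and 0 fell (0.23), with 4 and 3 other hydrolases (0.07) and 3 and 2 cathepsins (0.16), beside 15.1% and 13.5% of all genes. The pump median at day 7 was 0.21 on slide 1 and 0.16 on slide 2. At day 14, with 2 pump rises and 0 falls, the medians of pump (0.12), cathepsins (0.10) and other hydrolases (0.01) stood closer together. For the last of these, 3 members rose and 1 fell, and cathepsins had 1 rise and 2 falls (all genes 10.3% and 9.50%). Without lavage day 0 replicate 1, the day 7 differences from the pump turned, to 0.10 for cathepsins and 0.05 for other hydrolases. Under median scaling the day 14 differences from the pump also turned, to 0.27 and 0.08.

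In the day 7 capsule, 4 pump subunits and 3 other hydrolases rose against lavage with 0 falls in either class, and cathepsins had 2 rises and 2 falls (all genes 11.6% and 12.5%). Their medians were 0.25, 0.20 and 0.17, and within slides 1 and 2 the pump median was 0.21 and 0.34. In the day 14 capsule, 6 other hydrolases rose and 1 fell (0.31), 4 pump subunits rose and 0 fell (0.23), and cathepsins had 2 rises and 1 fall (-0.06). Membrane proteins had 0 rises and 2 falls (-0.34), and of all genes 16.8% rose and 18.4% fell. At capsule day 28 against day 7, cathepsins had 4 falls and 1 rise (-0.29), while no pump subunit was called (-0.06), beside 16.2% of all genes higher and 15% lower. These capsule comparisons at days 14 and 28 lie across slides, and under median scaling the day 14 class medians were 0.96 for cathepsins, 1.08 for other hydrolases, 0.65 for membrane proteins and 1.05 for the pump. Cathepsins minus pump at capsule day 14 was -0.46 without lavage day 14 replicate 1, against -0.29 with it, and other hydrolases minus pump was then -0.05. At capsule day 28 cathepsins minus pump was -0.06 without capsule day 7 replicate 2, against -0.23 with it, and 0.23 under median scaling.

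**Figure D4:**
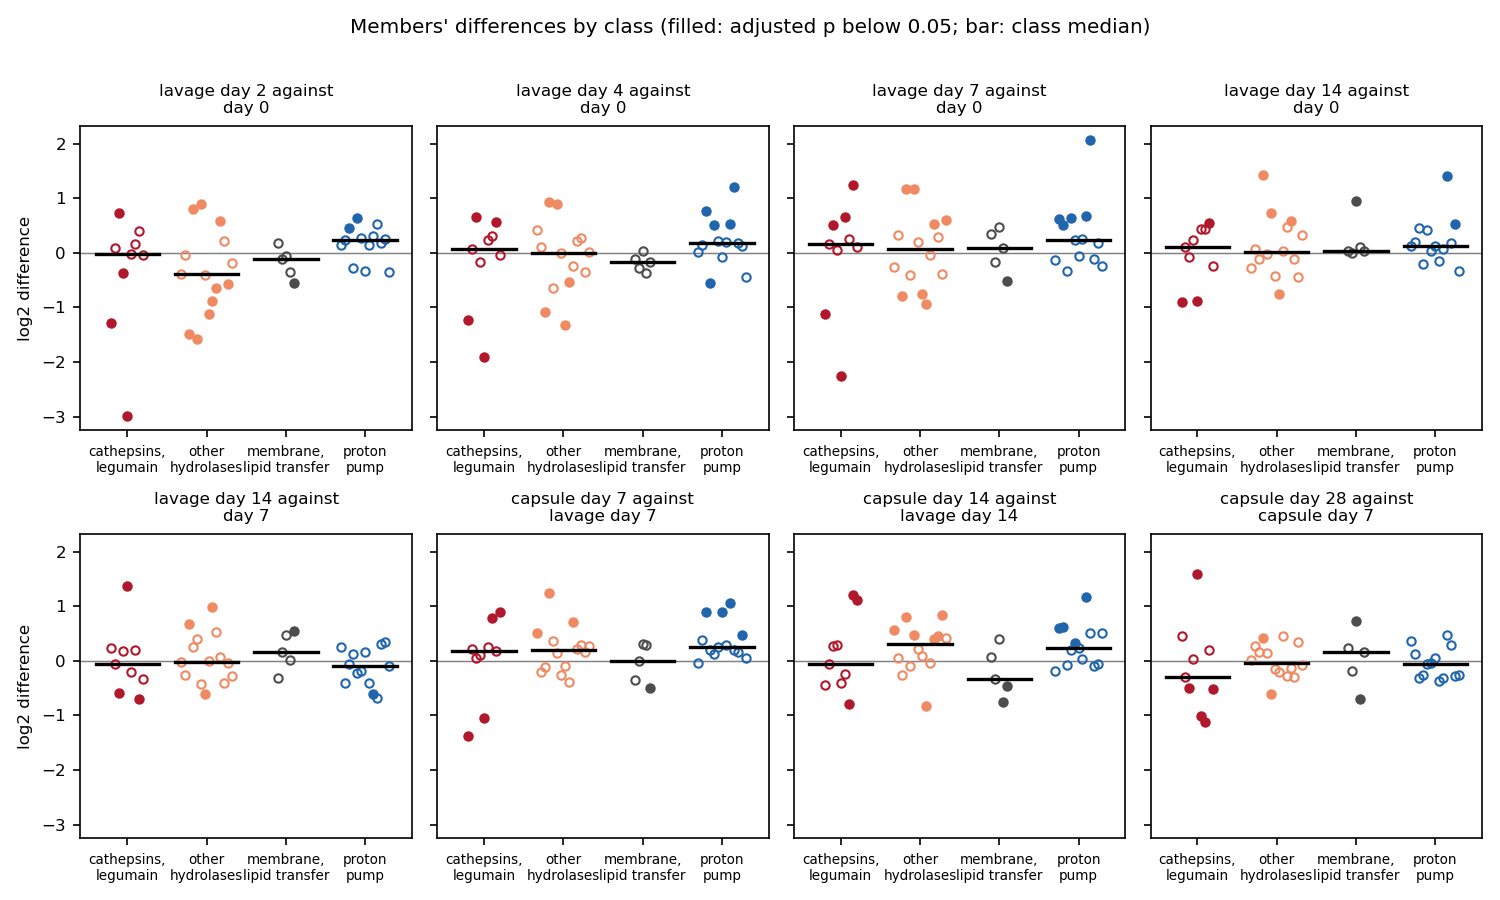
Log2 differences of single members (points) by class in 8 comparisons of 2 groups, filled where the adjusted p was below 0.05, with a bar at the class median. At lavage day 2 the other hydrolases centre below 0 (-0.40) and the pump subunits above it (0.23).

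Of 43 members, 15 were highest in capsule day 7 and 7 in capsule day 28, and 5 of those 7 were pump subunits. The lowest mean fell in lavage day 0 for 13 members, 7 of them pump subunits, and in lavage day 2 for 10, 8 of them cathepsins or other hydrolases. These ranks cross slides and were not counted over all genes or under median scaling, so they describe the members alone. The range over groups had a median of 0.68 for the pump, against 1.23 for cathepsins and legumain and 1.18 for other hydrolases.

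Beyond the set, 42 of 60 further lysosomal genes on a list drawn up for this comparison were measured. Against day 0, 4 of these rose and 10 fell at lavage day 2 (9.52% and 23.8%, all genes 13.3% and 11.7%), 4 and 9 at day 4 (all genes 15.4% and 12.6%), 6 and 7 at day 7 (15.1% and 13.5%), and 4 and 6 at day 14 (10.3% and 9.50%). In capsules against lavage, 8 rose and 5 fell at day 7 (all genes 11.6% and 12.5%) and 7 and 5 at day 14 (16.8% and 18.4%). Capsule day 28 against day 7 had 2 rises and 11 falls (16.2% and 15%). Ctsk, a collagen-degrading cathepsin, was not well above background at lavage day 0 and was at least 8.38, 19.6, 62.1 and 39.3-fold higher at lavage days 2, 4, 7 and 14. In capsules it was higher again, by log2 differences of 2.57 at day 7 and 2.60 at day 14. The bound sets the mean of the bright group against the lowest signal well above background on the dim arrays.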

How the data were processed

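RNA of 9 groups was read on 18 Illumina mouse bead arrays. Per the file headers, the main deposited table gives 46632 probes with a non-normalised intensity per array. Beside each intensity the authors deposited a detection p-value. A second deposited table holds the authors' normalised log2 values. The submitters' processing notes list BeadStudio as well as R 2.15.3, and the labels and headers do not give the background step behind these log2 values. Intensities were background corrected and quantile normalised with neqc (offset 16) in limma 3.58.1 under R 4.3.3. Of the probes, 29976 had 1 gene symbol, 10 several and 16646 none. A probe was kept where its detection p-value was below 0.05 on the 2 arrays of some group (20985 probes), and each gene was read from its brightest one, giving 10806 genes of 17711 with a named probe.

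Groups were compared with 1 mean per group over all arrays (lmFit and eBayes, 2-sided, 9 residual and 4.58 prior degrees of freedom), with Benjamini-Hochberg adjustment over all genes of a comparison and a threshold of 0.05. The fit was tested on simulated data with independent noise and no slide or scale effects, so that test cannot speak to differences between slides. The 47 members, their classes and the lists of markers and of other lysosomal genes were chosen with earlier results of these data known. Named in each comparison were the 3 largest rises and falls per class among called members, Tfeb and Mitf, and the 3 largest of the other lysosomal genes; other called members are described beyond that rule, under the same alternatives. Alternatives were the authors' values, median scaling, no background correction, an offset of 50, a detection p of 0.01 or no filter, the compared arrays alone, slide as a block, other probes and leaving out each array.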

Additional observations from a re-analysis of the deposited data

Results flagged for a closer look

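For 3 members the capsule minus lavage difference itself differed between days 14 and 7, by limma's interaction test over all genes. Of the members 2.33% passed upward and 4.65% downward, against 4.66% and 6.81% of all genes. Ctss gave -1.56 (log2, adjusted p = 0.002), with capsule cells lower than lavage cells at day 14 (-0.78) and higher at day 7 (0.78). Ctsz gave 1.04 (adjusted p = 0.00399), from a capsule difference of 1.21 at day 14 and 0.17 at day 7, and its second probe gave 0.11. Npc2 gave -1.05 (adjusted p = 0.0115), with -0.75 at day 14 and 0.29 at day 7. The Npc2 call ended without some single arrays, under median scaling or with the compared arrays fitted alone. Capsule day 14 alone lay on slide 3, so slide and group cannot be told apart in these values.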

How the results depend on the processing

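Of the 108 calls of members between 2 groups, 50 held without any 1 array, 102 with the authors' log2 values and 80 under median scaling. Under all alternative fits other than leaving out an array, 57 held. Other probes were not part of that count, and a fit lacking the comparison or the gene counted as held. Where a result moved, the cause was not tested. Without 1 array, the number of members changed was 10 to 16 at lavage day 2, 10 to 12 at lavage day 4, 12 to 14 at lavage day 7, 7 to 9 at lavage day 14, 1 to 2 at lavage day 4 against day 2, 2 to 11 at lavage day 14 against day 7, 7 to 10 at capsule day 7, 10 to 14 at capsule day 14, 4 to 8 at capsule day 28 against day 7, 0 to 0 at capsule day 28 against day 21 and 2 to 5 for the interaction. Cathepsins minus pump was then -0.30 to -0.21 at lavage day 2, -0.19 to 0.031 at lavage day 4, -0.17 to 0.098 at lavage day 7, -0.15 to 0.047 at lavage day 14, 0.10 to 0.22 at lavage day 4 against day 2, -0.16 to 0.21 at lavage day 14 against day 7, -0.16 to -0.14 at capsule day 7, -0.46 to -0.23 at capsule day 14, -0.27 to -0.059 at capsule day 28 against day 7, -0.23 to -0.041 at capsule day 28 against day 21 and 0.24 to 0.63 for the interaction. Other hydrolases minus pump was -0.73 to -0.53 at lavage day 2, -0.30 to -0.076 at lavage day 4, -0.25 to 0.049 at lavage day 7, -0.20 to -0.011 at lavage day 14, 0.067 to 0.35 at lavage day 4 against day 2, -0.13 to 0.25 at lavage day 14 against day 7, -0.20 to -0.039 at capsule day 7, -0.052 to 0.11 at capsule day 14, -0.050 to 0.16 at capsule day 28 against day 7, -0.13 to -0.081 at capsule day 28 against day 21 and 0.19 to 0.43 for the interaction. Median scaling gave cathepsins minus pump of 0.27 at lavage day 14, 0.38 at lavage day 14 against day 7, -0.088 at capsule day 14, 0.23 at capsule day 28 against day 7 and 0.53 for the interaction, against -0.02, 0.04, -0.29, -0.23 and 0.37, and other hydrolases minus pump of 0.084 at lavage day 14, against -0.11. It gave 33 members changed at capsule day 14, 26 at capsule day 28 against day 7 and 22 for the interaction, against 16, 9 and 3. The compared arrays alone gave 9 at capsule day 14 and 2 at lavage day 14 against day 7, against 16 and 8. With no background correction, lavage day 4 against day 2 had 4, against 2, and the interaction 5, against 3. The 8-base motif lay in 15.4% of members' windows and the 6-base motif in 35.9%. Median scaling turned the sign of Ctss (0.034), Man2b1 (0.014), Npc2 (0.037) and Scarb2 (0.24) at capsule day 14, of Ctsc (0.34), Lgmn (0.43), Gm2a (0.31) and Npc2 (0.064) at capsule day 28 against day 7, and of Mitf in the interaction (0.61). Without a detection filter another Laptm4b probe was read, which gave 0.47 at lavage day 2 and 0.20 at day 4. Other probes turned 25 of 100 values. They gave for Ctsa 0.61 at lavage day 2, 0.60 at day 4, 0.36 and 0.51 at day 7, 0.44 and 0.39 at day 14, and 0.48 and 0.24 at capsule day 7. For Mitf they gave -0.19, -0.35, -0.030 and -0.33 at lavage days 2, 4, 7 and 14, -0.48 at day 14 against day 7, -0.23 at capsule day 7, -0.88 at capsule day 14, 0.71 and 0.98 at capsule day 28 against day 21, and 1.18 for the interaction. For the rest they gave Man2b1 1.04 and 1.48 at lavage days 4 and 7, Glb1 0.16 at lavage day 2, Arsb -0.027 and Atp6ap2 -0.57 at capsule day 14, and Npc1 -0.028 and -1.17 at capsule day 28 against day 7. Tfeb and Mitf, where not called, also turned without 1 array. Tfeb ran -0.21 to 0.11 at lavage day 7, -0.46 to 0.15 at capsule day 7, -0.065 to 0.64 at capsule day 14 and -0.070 to 0.30 at capsule day 28 against day 21, where Mitf ran -0.18 to 0.18. On slides 1 and 2, replicate numbers also name the slide. Deviations of arrays with the same number correlated at -0.11 to 0.129 over 15 pairs of groups. These correlations over all genes cannot show whether arrays of 1 number share animals or effects in single genes. With the replicate block, over the 12 arrays of slides 1 and 2, the members changed were 15, 13, 17 and 10 at lavage days 2, 4, 7 and 14, 2 at day 4 against day 2, 6 at day 14 against day 7 and 11 at capsule day 7, against 15, 13, 18, 10, 2, 7 and 12 for those arrays without it. The fit without the block and the restriction to genes detected on all 18 arrays were chosen after seeing the data. Pairs of arrays limit the precision of every value, and dim probes (Tfeb, Atp6v1h) limit what their differences can show.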

Other observations

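Among the further lysosomal genes, cathepsin inhibitors and membrane proteins also moved. The stefin Stfa2, an inhibitor of cysteine cathepsins, was not well above background at lavage day 0 and was at least 18.4-fold higher at day 2 and at least 6.43-fold higher at day 4, days on which neutrophil markers were high, and their part was not tested. Cst7, an inhibitor of cathepsins, was not well above background at day 0 and was at least 5.82-fold higher at lavage day 7 and at least 8.82-fold higher at day 14. Cstb, another inhibitor, rose at lavage day 2 (log2 difference 1.09, adjusted p = 5.69e-05), was lower at lavage day 14 than at day 7 (-0.90, adjusted p = 0.000909) and higher in the day 14 capsule than in lavage (1.46, adjusted p = 3.11e-06, and 2.75 under median scaling). The tetraspanin Cd63 was also higher in that capsule (2.18, adjusted p = 2.32e-06, and 3.35 under median scaling). Acp5, tartrate-resistant acid phosphatase, was higher in the day 7 capsule than in lavage (1.45, adjusted p = 0.00334, and 0.80 with no background correction).

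Lower in the day 14 capsule than in lavage were the sulphatase Sgsh (-1.84, adjusted p = 4.11e-05), the sorting receptor Sort1 (-1.83, adjusted p = 1.4e-05) and the MiT/TFE factor Tfec (-1.54, adjusted p = 0.00286, and -0.99 with no background correction). Tfec had risen at lavage day 4 over day 0 (1.71, adjusted p = 0.00177). In the lavage against day 0, Sort1 (-1.15, adjusted p = 0.000928) and the phospholipase Pla2g15 (-0.92, adjusted p = 0.000223, and -0.60 under median scaling) fell at day 2, and Ppt1, a palmitoyl thioesterase, fell at day 7 (-0.88, adjusted p = 0.00161). The pump subunit Atp6v1g2 fell at day 4 (-1.24, adjusted p = 0.000844) and day 14 (-1.11, adjusted p = 0.00257), and was lower in the day 7 capsule than in lavage (-1.11, adjusted p = 0.00211, and -0.72 with no background correction). Laptm4a was higher at capsule day 28 than at day 7 (0.70, adjusted p = 0.00625, and 1.495 under median scaling), and Stfa2 was there at least 3.60-fold lower. Further calls of Ctse, Dnase2a, Fuca1, Cln3 and Ctso each ended without at least 1 array.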
